A study of Homo sapiens with 9 samples.

Results

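Interferon response genes were followed in Huh7, a human hepatocarcinoma cell line, after siRNA silencing of enzymes of ceramide synthesis. The set held 37 listed genes, each read by the probe set annotated to that gene alone with the highest mean over all arrays. Of these, 36 had such a probe set and STAT2 was not analysed here, and the whole table held 19775 genes chosen the same way. The arrays formed 3 groups of 3 biological replicates. The SPTLC123 group received siRNA against SPTLC1, SPTLC2 and SPTLC3, the subunits of serine palmitoyltransferase, which carries out the entry step of ceramide synthesis. The DEGS1 group received siRNA against dihydroceramide desaturase, which carries out the last step. The scramble group received a non-targeting siRNA from the same supplier. All cells received 20 nM siRNA with the same lipid reagent, and the labels place the samples at 72 h, although the treatment protocol describes a medium change at that time and a later harvest. No array of cells without siRNA or without lipid reagent was analysed, so a response to transfection shared by the 3 groups cannot be told apart from the level these cells hold anyway. The values are normalized probe-set intensities on the log2 scale, and the number of arrays limits their precision.

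Interferon response genes form the first defence of a cell against viruses. RNA sensors such as RIGI, IFIH1 and TLR3 detect double-stranded or unusually capped RNA, and IRF3 and IRF7 then switch on interferon genes. Secreted interferon acts through its receptors, Janus kinases and a complex of STAT proteins with IRF9, which binds the interferon-stimulated response element in the promoters of its many target genes. Synthetic double-stranded RNA, siRNA included, can engage the same sensors. Hepatocytes and hepatoma lines hold this pathway to differing degrees.

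Both knockdowns were present in the labelled arrays. SPTLC1 changed by -2.27 ± 0.11 and SPTLC2 by -1.05 ± 0.11 in SPTLC123 siRNA (SE, limma, adjusted p = 1.42e-06 and 0.00024), which left 20.7% and 48.4% of the signal, and SPTLC3 was not analysed here. DEGS1 changed by -3.73 ± 0.16 in DEGS1 siRNA (adjusted p = 7.32e-07), which left 7.55%. The 8 measured hepatocyte markers had group means from 10.79 to 14.39. Of these, 4 fell in SPTLC123 siRNA, namely TTR (-1.03), APOA1 (-0.46), TF (-0.37) and SERPINA1 (-0.33), and TTR fell in DEGS1 siRNA (-0.69), and the part of these changes in the interferon gene results was not tested. The 12 measured markers of other cell types had group means from 2.98 to 7.74. Only CD14, a monocyte marker, was called among these against scramble, lower by -0.62 in SPTLC123 siRNA and -0.54 in DEGS1 siRNA (adjusted p = 0.0253 and 0.049), and the leukocyte marker PTPRC lay between 3.20 and 3.92. PECAM1 and COL1A1, listed as endothelial and fibroblast markers, lay above 7 in every array. Control transcripts singled out 3 arrays. For actin, the log2 signal at the 3′ end minus that at the 5′ end was 1.15 to 1.31 in SPTLC123 replicate 3 and DEGS1 replicates 2 and 3, and 0.40 to 0.56 in the other 6 arrays, scramble included. These 3 arrays are called the arrays with weak 5′ signal here, and for some results that moved with them the changes without them are given.

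As a guide to the signal of genes that are not expressed, 26 genes restricted to other tissues, such as protamines and crystallins, gave values from 2.83 to 6.10 with a median of 4.36, and the median of all probe sets was 4.86. In every scramble array 13 of the 36 genes lay above that highest value: RIGI, IRF3, IRF9, IFIT5, EIF2AK2, ADAR, ISG15, TRIM25, DTX3L, IFITM3, ISG20, IFI35 and B2M. The other 23 did not. Among those, 12 stayed under the all-probe-set median in all 9 arrays: IFIH1, TLR3, IRF7, OAS2, IFITM1, BST2, MX1, GBP1, IFI6, IFI27, IFI44 and IFI44L. Those levels are of the probe set used for each gene. A dimmer probe set of each of RIGI, IFIT5, EIF2AK2 and B2M lay inside the range of the tissue-restricted genes in all 9 arrays. Probe sets differ in brightness for the same amount of RNA, so these levels give no ranking between genes. Inside this range a fold change can be understated. The silenced values of SPTLC2 (4.87 to 5.22 in SPTLC123 siRNA) and DEGS1 (4.80 to 5.19 in DEGS1 siRNA) also lie in it. For these 2 genes the RNA left can be less than the percentage of signal given.

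MX1, the dynamin-like antiviral GTPase, read 3.68, 3.63 and 3.53 in SPTLC123 siRNA, 3.46, 3.88 and 3.76 in DEGS1 siRNA, and 3.63, 3.62 and 3.49 in scramble. The groups overlapped. IFI6, which stabilizes mitochondria and is strongly interferon-induced, read 4.13, 3.94 and 3.80 in SPTLC123 siRNA, 4.41, 3.94 and 4.10 in DEGS1 siRNA, and 4.29, 4.01 and 4.31 in scramble, and overlapped likewise. Among ligands, 6 were measured. The type I interferon gene IFNB1 read 3.37 to 3.97 over the 9 arrays, below the median of all probe sets in each.

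**Figure D1:**
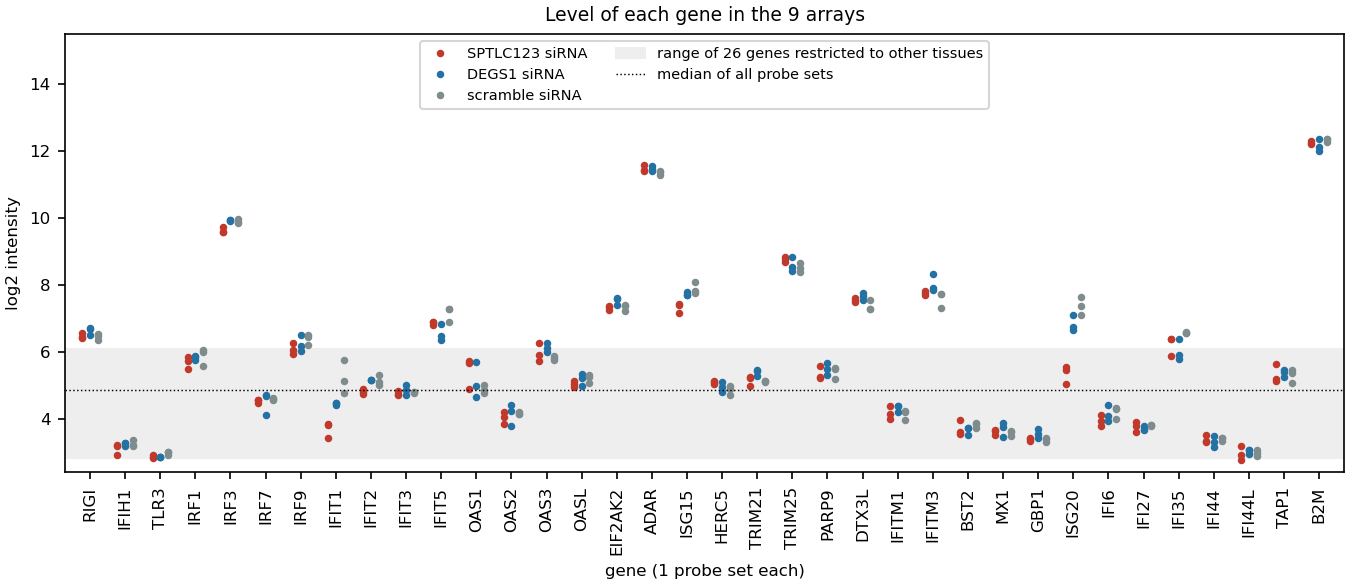
Level of each of the 36 genes (log2 intensity, y axis) in the 9 arrays, 1 point per array, coloured by siRNA group. The grey band is the range of 26 genes restricted to other tissues (2.83 to 6.10) and the dotted line the median of all probe sets (4.86); 13 genes lie above the band in every scramble array, and ISG20 and IFIT1 show the widest gaps between groups.

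The first comparison, SPTLC123 siRNA with scramble, concerns loss of the entry enzyme. ISG20, ISG15 and IFIT1 fell and no gene of the set rose by the probe set used for each gene. The other 33 did not pass the test by these probe sets, among them the sensors, the interferon regulatory factors, MX1 and the OAS genes. A second OAS1 probe set was called higher, and the first under some alternative settings, as given with that gene. The 3 decreases are 8.33% of 36 genes, beside 4.63% of all genes that fell, and 0 increases stand beside 5.31% of all genes that rose. The median change of the 36 genes was -0.05, beside -0.03 over all genes. At an unadjusted limma p under 0.05, 0 of the 36 genes were higher and 5 lower. No share of all genes was taken at that threshold, so these counts are not read as a direction of the set. The shares at the adjusted threshold describe the set, and the values of the single genes follow.

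ISG20, an interferon-induced exonuclease that degrades single-stranded RNA, showed the largest change of the set. Its values were 5.05, 5.47 and 5.55 in SPTLC123 siRNA, 7.09, 6.66 and 6.74 in DEGS1 siRNA, and 7.11, 7.64 and 7.36 in scramble. All SPTLC123 arrays lay below all others by more than 1 log2 unit. Group means were 5.36 ± 0.27 in SPTLC123 siRNA and 7.37 ± 0.26 in scramble (SD, n = 3 each). The change against scramble was -2.01 ± 0.17 (limma, adjusted p = 5.31e-05), which left 24.8% of the signal. A second ISG20 probe set changed by -2.29 ± 0.28 (limma over every probe set, adjusted p = 0.00176), reading 4.91, 5.64 and 4.50 in SPTLC123 siRNA and 7.08, 7.76 and 7.07 in scramble. The call held under all 21 alternative settings, with changes from -2.15 to -1.86. The SPTLC123 values of both probe sets lie inside the range of the tissue-restricted genes, where a fold change can be understated.

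IFIT1 binds viral RNA that lacks the methylation of a host cap and blocks its translation. It read 3.43, 3.86 and 3.82 in SPTLC123 siRNA, 4.48, 4.41 and 4.46 in DEGS1 siRNA, and 4.77, 5.77 and 5.12 in scramble. The 3 groups stood apart with no overlap, SPTLC123 lowest and scramble highest. Group means were 3.70 ± 0.24 in SPTLC123 siRNA and 5.22 ± 0.51 in scramble (SD, n = 3 each). The change in SPTLC123 siRNA was -1.52 ± 0.21 (limma, adjusted p = 0.00112), with 34.9% of the signal left. All 9 values fall inside the range of the tissue-restricted genes, and its size is therefore poorly determined. It was called in each of the 20 alternatives that tested it (-1.74 to -1.24).

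ISG15, a ubiquitin-like protein that is attached to other proteins during the interferon response, read 7.40, 7.44 and 7.16 in SPTLC123 siRNA and 7.75, 8.09 and 7.81 in scramble. The groups did not overlap, with means of 7.34 ± 0.15 in SPTLC123 siRNA and 7.89 ± 0.18 in scramble (SD, n = 3 each), and the change was -0.55 ± 0.11 (limma, adjusted p = 0.011), with 68.3% of the signal left. Without the arrays with weak 5′ signal it was -0.46 (adjusted p = 0.0592). IFIT2, a tetratricopeptide relative of IFIT1, read 4.74, 4.81 and 4.88 in SPTLC123 siRNA and 5.31, 5.09 and 5.02 in scramble. These groups did not overlap either, but the difference of -0.33 ± 0.10 missed the threshold (adjusted p = 0.0555).

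**Figure D2:**
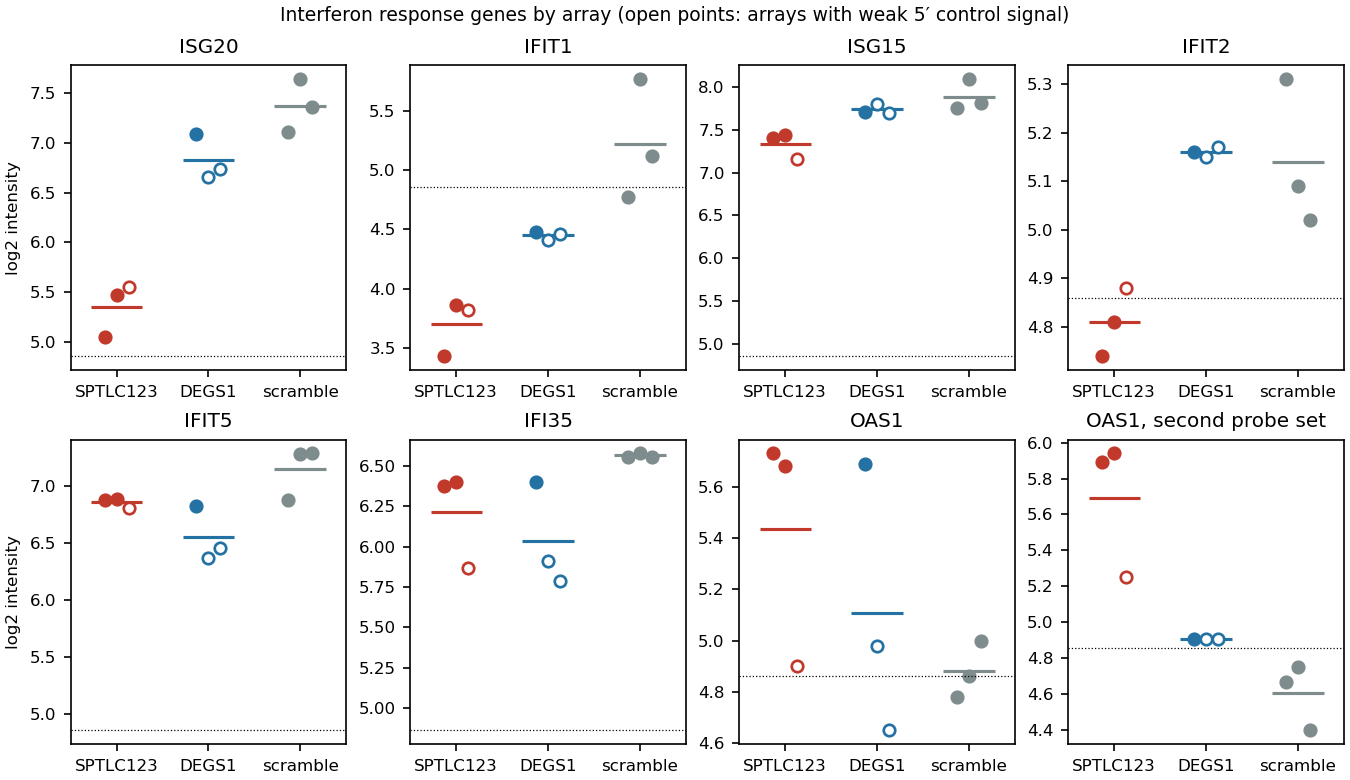
Log2 intensity (y axis, scaled for each panel) of ISG20, IFIT1, ISG15, IFIT2, IFIT5, IFI35 and both OAS1 probe sets in SPTLC123, DEGS1 and scramble siRNA, 1 point per array with the group mean as a bar. Open points are the arrays with weak 5′ signal and the dotted line is the median of all probe sets (4.86); ISG20 separates SPTLC123 (5.05 to 5.55) from all other arrays, whereas IFI35 and the first OAS1 probe set split by 5′ signal within the knockdown groups.

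The promoters of the genes called in any comparison are shown because the response element that STAT and IRF9 bind can be read in them. Each window runs from 250 bases before to 50 bases after the annotated gene start (RefSeq, GRCh38.p14), 5′ to 3′, and capitals mark matches on either strand to the letters GAAA, any 2 bases, GAAA, a core of the response element. IFIT2, the other called gene, had no entry in the promoter table.
ISG20, chr15:88638766-88639065, plus strand: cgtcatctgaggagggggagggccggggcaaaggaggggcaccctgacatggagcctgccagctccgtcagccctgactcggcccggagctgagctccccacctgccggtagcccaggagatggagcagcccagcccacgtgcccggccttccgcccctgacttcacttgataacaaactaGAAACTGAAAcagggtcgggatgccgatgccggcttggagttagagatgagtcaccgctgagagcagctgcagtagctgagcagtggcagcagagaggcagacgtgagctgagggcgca
IFIT1, chr10:89392373-89392672, plus strand: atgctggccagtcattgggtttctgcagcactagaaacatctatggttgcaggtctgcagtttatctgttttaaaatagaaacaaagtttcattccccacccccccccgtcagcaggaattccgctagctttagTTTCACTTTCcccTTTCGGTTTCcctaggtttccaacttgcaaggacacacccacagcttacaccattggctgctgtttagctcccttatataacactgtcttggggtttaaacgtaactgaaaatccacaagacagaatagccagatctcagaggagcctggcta
ISG15, chr1:1013247-1013546, plus strand: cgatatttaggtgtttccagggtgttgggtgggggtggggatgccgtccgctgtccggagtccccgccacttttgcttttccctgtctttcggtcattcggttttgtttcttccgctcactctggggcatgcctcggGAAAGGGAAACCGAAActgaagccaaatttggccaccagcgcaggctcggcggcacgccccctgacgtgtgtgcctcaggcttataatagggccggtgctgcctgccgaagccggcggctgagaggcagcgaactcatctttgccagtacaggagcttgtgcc
IFIT5, chr10:89414318-89414617, plus strand: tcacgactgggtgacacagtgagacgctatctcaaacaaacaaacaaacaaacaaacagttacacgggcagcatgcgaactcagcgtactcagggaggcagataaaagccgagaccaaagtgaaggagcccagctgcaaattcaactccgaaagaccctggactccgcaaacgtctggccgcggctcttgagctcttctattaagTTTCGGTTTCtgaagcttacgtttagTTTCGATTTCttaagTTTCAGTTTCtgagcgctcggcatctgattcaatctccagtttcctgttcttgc
ISG20 holds 1 match, which begins 69 bases before the start. IFIT1 holds 2, at 116 and 103 bases before it, ISG15 holds 2 that overlap, at 113 and 107, and IFIT5 holds 3, at 45, 19 and 4. The letters are a description of the sequence and not evidence of binding in these cells.

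Such letters are common to the set and not particular to the genes that changed. Of 31 measured genes of the set with a promoter entry, 23 (74.2%) held these letters, against 2.94% of the 15384 promoters of all measured genes in the table. Among these 31 genes, all 4 called genes held it, and so did 19 of the 27 that were not called, among them MX1, IFI6, IFI27, IFI44L, BST2 and IFIT3. RIGI, IRF1, IRF9, OAS1, ADAR, TRIM25, PARP9 and IFI35 had no match in this window. The palindrome TTCNNNGAA, the site of STAT dimers, was found in 8 of the 31 (25.8%), against 6.95% of all measured promoters. With the shorter letters GAAANNGAA, which include every match to the longer ones, the share of the set stayed at 74.2% and that of all measured genes was 6.71%.

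**Figure D3:**
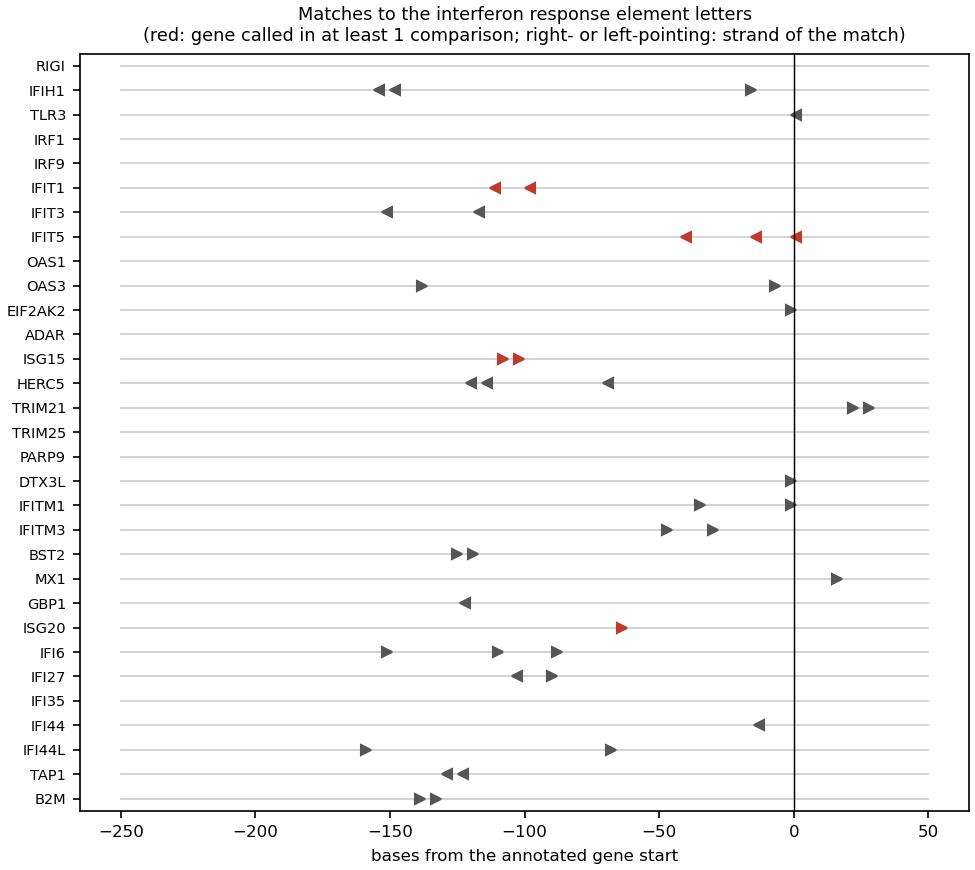
Position of matches to GAAA, any 2 bases, GAAA (triangles at the centre of each match, pointing with its strand) in the promoter windows of 31 genes of the set, in bases from the annotated gene start (x axis). Genes called in at least 1 comparison are red; matches occur in 23 genes, 4 of them called and 19 not called.

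By role, the sensors and signalling factors showed no call after SPTLC123 siRNA. All 7 lay within -0.29 to 0.01 of scramble, among them TLR3, the endosomal sensor of double-stranded RNA (-0.11), IRF7, the inducible partner of IRF3 (-0.07), IRF1 (-0.19) and IRF9 (-0.29). IRF3, the constitutive factor that turns on interferon genes, came nearest. It read 9.59, 9.73 and 9.59 in SPTLC123 siRNA and 9.84, 9.97 and 9.88 in scramble, with no overlap, and differed by -0.26 ± 0.09 (limma, adjusted p = 0.0819). RIGI, the cytosolic sensor of RNA with a triphosphate end, read 6.56, 6.43 and 6.41 in SPTLC123 siRNA and 6.48, 6.54 and 6.35 in scramble (0.01, adjusted p = 0.982), by a probe set whose name marks it as open to cross-hybridization. Neither of its 2 other probe sets was called. IFIH1, the sensor of long double-stranded RNA, read 3.21, 3.19 and 2.92 in SPTLC123 siRNA and 3.21, 3.38 and 3.20 in scramble (-0.16, adjusted p = 0.408).

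The remaining effectors gave narrow intervals. IFIT3, which binds and stabilizes IFIT1, read 4.75, 4.83 and 4.70 in SPTLC123 siRNA and 4.79, 4.76 and 4.79 in scramble, a difference of -0.02 with a 95% interval from -0.23 to 0.20. Its second, dimmer probe set differed by -0.40 (adjusted p = 0.176). The 5 membrane and vesicle restriction factors, IFITM1, IFITM3, BST2, MX1 and GBP1, lay between -0.10 and 0.18. Among the ISG15 ligase HERC5, the ubiquitin ligases TRIM21 and TRIM25, and the partners PARP9 and DTX3L, differences ran from -0.05 to 0.23. Among the other interferon-induced genes, IFI35 differed by -0.35 (adjusted p = 0.25), with every SPTLC123 array below scramble, and IFI6 by -0.24 (adjusted p = 0.337). IFI27, IFI44 and IFI44L lay between -0.05 and -0.01. The peptide transporter TAP1 and the class I light chain B2M differed by 0.03 and -0.09. By the probe set used for each gene, the 95% interval of the change lay inside a doubling or halving for 32 of the 33 genes not called. OAS1 was the exception, with an upper bound of 1.13. The 33 include the 12 genes under the all-probe-set median in all 9 arrays, where a fold change can be understated. These intervals bound the signal and not the RNA.

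**Figure D4:**
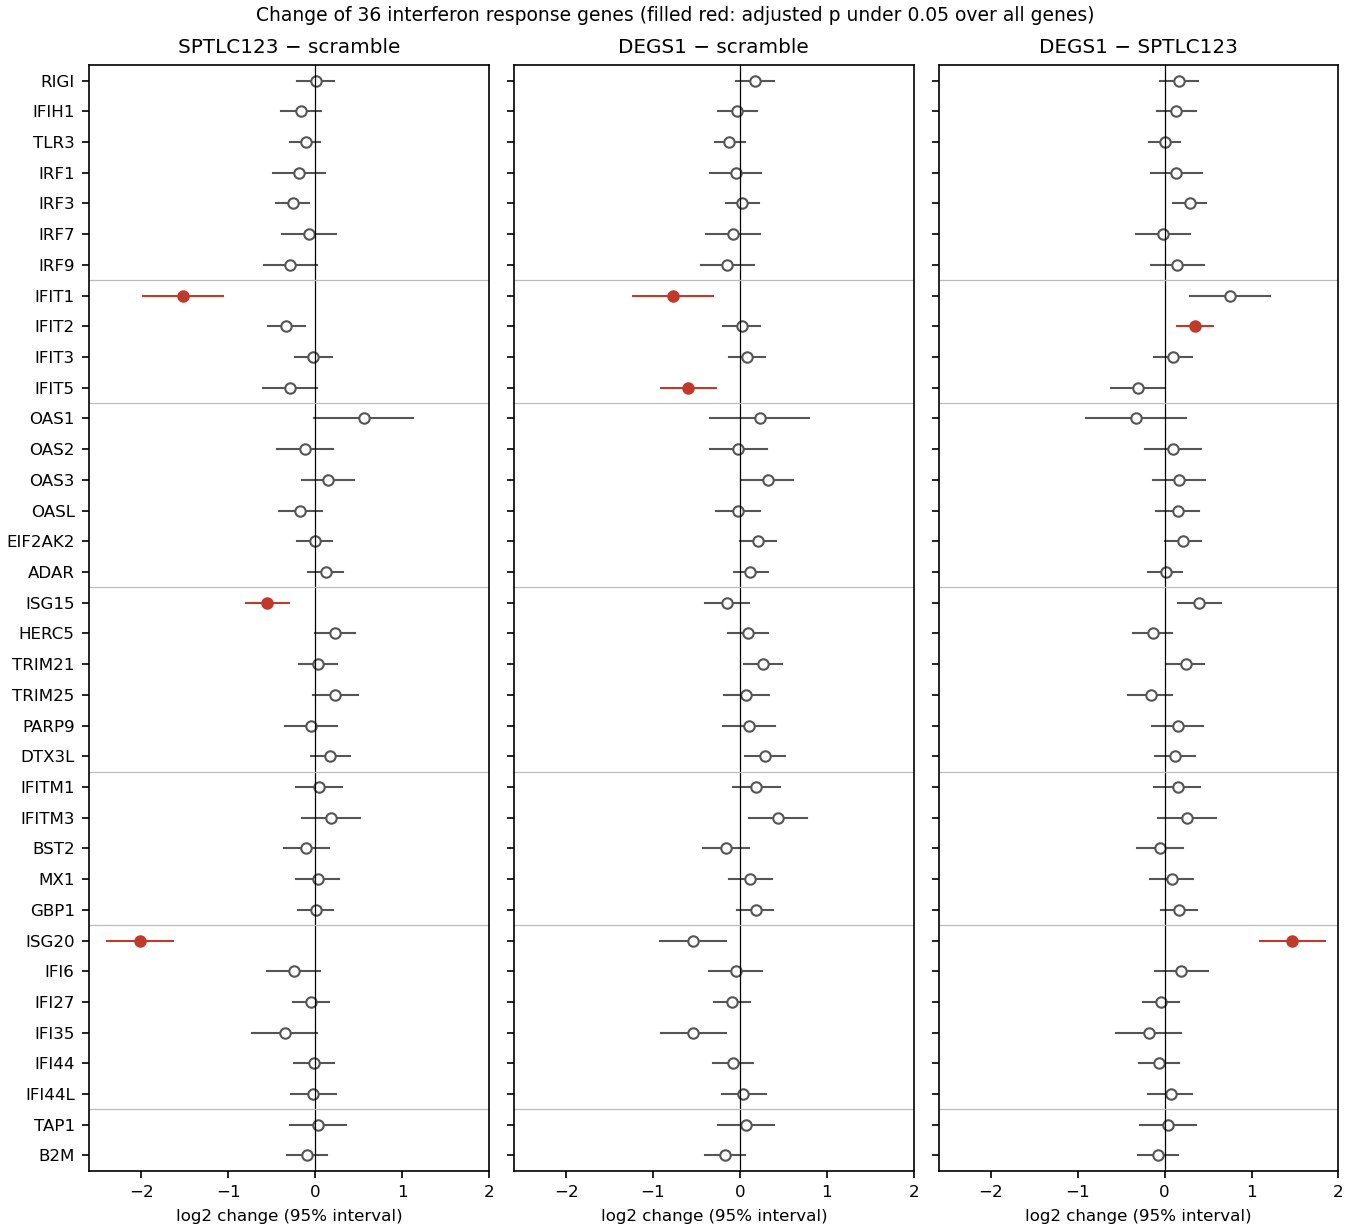
Log2 change (points) with 95% interval of the moderated limma fit (lines) for the 36 genes in SPTLC123 minus scramble, DEGS1 minus scramble and DEGS1 minus SPTLC123, grouped by role from sensors at the top to antigen presentation at the bottom. Filled red marks an adjusted p under 0.05 over all genes: 3, 2 and 2 genes, with ISG20 at -2.01 and IFIT1 at -1.52 in SPTLC123 siRNA.

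The second comparison, DEGS1 siRNA with scramble, concerns loss of the last enzyme. IFIT1 and IFIT5 fell and no gene of the set rose. The 2 decreases are 5.56% of 36 genes, beside 5.04% of all genes that fell, and 0 increases stand beside 4.66% of all genes that rose. At an unadjusted limma p under 0.05, 5 were higher and 4 lower, with no share of all genes taken at that threshold. At the adjusted threshold, the share of decreases lies near that of the table as a whole. The median change of the set was 0.02, beside -0.01 over all genes. Both calls were lost when single arrays were left out, as given with each gene.

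IFIT1 was lower in every DEGS1 array (4.41 to 4.48) than in every scramble array (4.77 to 5.77). The change was -0.77 ± 0.21 (limma, adjusted p = 0.0425), with 58.7% of the signal left. The call ended without SPTLC123 replicate 2, DEGS1 replicate 2 or 3, or scramble replicate 2 or 3 (adjusted p = 0.0603 to 0.134). It also ended with the actin 3′/5′ difference as a covariate. Without scramble replicate 2, the highest array, the difference was -0.49. Between DEGS1 replicate 1 alone and the 3 scramble arrays it was -0.74, close to the value over all arrays, and was not called (adjusted p = 0.406, the lone array being taken to vary like the other groups).

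IFIT5, an IFIT protein that binds RNA with a triphosphate end, read 6.83, 6.37 and 6.46 in DEGS1 siRNA and 6.88, 7.28 and 7.29 in scramble. The groups did not overlap, but DEGS1 replicate 1 lay within 0.05 of scramble replicate 1. The change was -0.60 ± 0.14 (limma, adjusted p = 0.0236), with 66.2% of the signal left. Its second probe set differed by -0.27 (adjusted p = 0.288). The lower values are those of the arrays with weak 5′ signal. With the actin 3′/5′ difference as a covariate the change was -0.42 (adjusted p = 0.111), and without those arrays -0.32 (adjusted p = 0.52). Leaving out any of DEGS1 replicates 2 and 3 or scramble replicates 2 and 3 also ended the call (adjusted p = 0.087 to 0.107). The part of the 5′ signal in this decrease was not tested further.

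ISG20 and ISG15 differed less from scramble after DEGS1 siRNA. ISG20 was below scramble in every DEGS1 array, with 7.09 as the nearest DEGS1 value and 7.11 as the nearest scramble value, and the difference of -0.54 ± 0.17 missed the threshold (limma, adjusted p = 0.0755). ISG15 read 7.71, 7.80 and 7.70 in DEGS1 siRNA, overlapped scramble and differed by -0.15 (95% interval -0.40 to 0.10). IFIT2 read 5.16, 5.15 and 5.17 and differed by 0.02 (95% interval -0.19 to 0.23). IFITM3, which restricts virus entry at endosomes, was higher in every DEGS1 array (7.85, 8.34 and 7.90) than in scramble (7.74, 7.73 and 7.30), by 0.44, without passing the test (adjusted p = 0.0948). By the probe set used for each gene, the 95% intervals of all 34 genes not called lay inside a doubling or halving of the signal. For the dim genes among these, the change in RNA can be larger. Intervals of further probe sets are not given. A second bright B2M probe set read 12.31, 11.40 and 11.17 in DEGS1 siRNA and 12.30, 12.24 and 12.19 in scramble. It differed by -0.62 ± 0.28 (limma over every probe set, adjusted p = 0.244).

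The direct comparison of DEGS1 with SPTLC123 siRNA tests where the knockdowns differ. ISG20 and IFIT2 were higher in DEGS1 siRNA and none of the set was lower by the probe set used for each gene. A second OAS1 probe set was called lower, as given with that gene. The 2 increases are 5.56% of 36 genes, beside 3.70% of all genes called higher, and 0 decreases stand beside 4.96% of all genes called lower. At an unadjusted limma p under 0.05, 7 of the 36 were higher and 0 lower. With no share of all genes taken at that threshold, these counts are not read as a direction of the set. ISG20 was higher in every DEGS1 array by 1.47 ± 0.17 (limma, adjusted p = 0.000446), or 278% of the SPTLC123 signal. Within the arrays with weak 5′ signal it read 6.66 and 6.74 in DEGS1 siRNA and 5.55 in SPTLC123 siRNA. Within the others it read 7.09 in DEGS1 siRNA and 5.05 and 5.47 in SPTLC123 siRNA, so the difference is seen in both sets of arrays. The call held in all 21 alternatives (1.32 to 1.83).

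IFIT2 was higher in DEGS1 siRNA by 0.35 ± 0.10 (limma, adjusted p = 0.0486), just inside the threshold. Its call held in 4 of 21 alternatives and ended when any of the 6 arrays compared was left out, or scramble replicate 2 or 3 (adjusted p = 0.055 to 0.178). A second IFIT2 probe set, reading 2.90 to 3.33, differed by 0.23 (limma over every probe set, adjusted p = 0.179). The values of both IFIT2 probe sets lie inside the range of the tissue-restricted genes. IFIT1 and ISG15 lay just outside the threshold. IFIT1 was higher in every DEGS1 array by 0.75 ± 0.21 (adjusted p = 0.0505) and ISG15 by 0.40 ± 0.11 (adjusted p = 0.0512), each called in 6 alternatives. The median difference of the 36 genes was 0.13, beside 0.01 over all genes, and was 0.01 without the arrays with weak 5′ signal.

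Within the knockdown groups, the first OAS1 probe set was lower in the arrays with weak 5′ signal. OAS1 encodes a synthetase of the 2-5A messenger that activates a ribonuclease against viral RNA. The probe set used read 5.73 and 5.68 in SPTLC123 replicates 1 and 2 but 4.90 in replicate 3, 5.69 in DEGS1 replicate 1 but 4.98 and 4.65 in replicates 2 and 3, and 4.78, 4.86 and 5.00 in scramble. The 3 knockdown arrays with ordinary 5′ signal were high, and those with weak 5′ signal read like the scramble arrays, whose 5′ signal was ordinary. The part of the 5′ signal in this pattern was not tested. Over all arrays no difference was called (0.56, adjusted p = 0.226 in SPTLC123 siRNA, and 0.23, adjusted p = 0.656 in DEGS1 siRNA). With the covariate the changes were 0.77 (limma, adjusted p = 0.00103) in SPTLC123 siRNA and 0.74 (adjusted p = 0.00703) in DEGS1 siRNA. Without those arrays they were 0.83 (adjusted p = 0.00335) and 0.81 (adjusted p = 0.0325), the last on 1 DEGS1 array, which the fit takes to vary like the other groups.

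A second OAS1 probe set gave another picture for DEGS1. It read 5.89, 5.94 and 5.25 in SPTLC123 siRNA, 4.91, 4.91 and 4.91 in DEGS1 siRNA, and 4.67, 4.75 and 4.40 in scramble, with the DEGS1 values equal to 2 decimals. It rose by 1.09 ± 0.18 in SPTLC123 siRNA (limma over every probe set, adjusted p = 0.00695), and differed by 0.31 in DEGS1 siRNA (adjusted p = 0.349). In DEGS1 minus SPTLC123 it was called lower, by -0.78 ± 0.18 (adjusted p = 0.0362). SPTLC123 replicates 1 and 2 were high by both probe sets, whereas DEGS1 replicate 1 was high by the first only. All values of both OAS1 probe sets lie inside the range of the tissue-restricted genes, where a fold change can be understated. OAS2, OAS3 and OASL, the relatives of OAS1, and the RNA-activated kinase EIF2AK2 and the RNA editor ADAR differed by -0.17 to 0.15 in SPTLC123 siRNA and by -0.02 to 0.32 in DEGS1 siRNA, and none was called.

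IFI35 moved with the same arrays. It read 6.38, 6.40 and 5.87 in SPTLC123 siRNA, 6.40, 5.91 and 5.79 in DEGS1 siRNA, and 6.56, 6.58 and 6.56 in scramble. Its lowest 3 values are those of the arrays with weak 5′ signal, and the difference of -0.54 in DEGS1 siRNA was not called (limma, adjusted p = 0.0748). With the covariate IFI35 was not called either. The pooled SD within groups was 0.41 for OAS1, 0.32 for IFIT1, 0.26 for ISG20 and 0.25 for IFI35, the highest of the set, beside a median of 0.14.

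The 4 IFIT genes lie side by side on chromosome 10, with IFIT1B and a pseudogene among them. In SPTLC123 siRNA the changes were -1.52 for IFIT1, -0.33 for IFIT2, -0.02 for IFIT3 and -0.29 for IFIT5. Only that of IFIT1 was called, and the median change over all genes was -0.03. In DEGS1 siRNA the changes were -0.77 for IFIT1, 0.02 for IFIT2, 0.08 for IFIT3 and -0.60 for IFIT5. Both comparisons share the scramble arrays, and differences between the genes were not tested.

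Other genes of the pathway were read from 6 lists, of which 110 of 119 genes were measured. Each was read by its probe set with the highest mean, and further probe sets of these genes are not given here. In SPTLC123 siRNA 6 rose (5.45%, beside 5.31% of all genes) and 3 fell (2.73%, beside 4.63%). Among receptors, IFNGR2, a chain of the interferon gamma receptor, rose by 0.55 ± 0.09 (limma, adjusted p = 0.00333). Among negative regulators PIAS1 rose by 0.48 (adjusted p = 0.0136) and SOCS1, which inhibits Janus kinases, by 0.45 (adjusted p = 0.0141). Of 49 further interferon-induced effectors PARP12 rose by 0.71 ± 0.10 (adjusted p = 0.00124) and NMI by 0.85 (adjusted p = 0.0311), while MX2 fell by 0.53 (adjusted p = 0.0035) and UBE2L6, the conjugating enzyme for ISG15, by 0.46 (adjusted p = 0.0241). Among 17 relay genes TRAF3 rose by 0.41 (adjusted p = 0.0339) and MYD88 fell by 0.29 (adjusted p = 0.0465). None of 17 antigen presentation genes and none of the ligands was called. With those 3 arrays of weak 5′ signal left out, 5 of these 9 calls remained, those of PARP12, IFNGR2, MX2, NMI and TRAF3. The other 4 kept changes of similar size, 0.45 for SOCS1, 0.41 for PIAS1, -0.44 for UBE2L6 and -0.30 for MYD88.

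In DEGS1 siRNA 3 of the 110 rose (2.73%, beside 4.66% of all genes) and 2 fell (1.82%, beside 5.04%). IFNGR1 rose by 0.73 ± 0.12 (limma, adjusted p = 0.00338), RNF213 by 0.59 (adjusted p = 0.0214) and MYD88, the adaptor of Toll-like receptors, by 0.31 (adjusted p = 0.0383). TRIM5, a restriction factor against retroviral capsids, fell by 0.77 ± 0.11 (adjusted p = 0.00189) and the interferon receptor chain IFNAR2 by 0.41 (adjusted p = 0.045). TRIM5 read 7.09, 6.92 and 7.06 in DEGS1 siRNA, 7.74, 7.84 and 7.72 in SPTLC123 siRNA, and 7.58, 7.84 and 7.96 in scramble, so that the DEGS1 arrays stood alone. With those 3 arrays left out, which leaves 1 DEGS1 array, none of the 5 was called. The changes were then -0.71 for TRIM5, 0.31 for MYD88, 0.53 for IFNGR1, 0.41 for RNF213 and -0.18 for IFNAR2. TRIM5 and IFNGR1 were called with the covariate (adjusted p = 0.00766 and 0.0137).

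Between the knockdowns, 4 of the 110 genes were higher in DEGS1 siRNA (3.64%, beside 3.70% of all genes) and 3 lower (2.73%, beside 4.96%). MYD88 was higher by 0.60 ± 0.08 (limma, adjusted p = 0.00121), with 9.27, 9.31 and 9.24 in DEGS1 siRNA, 8.62, 8.71 and 8.70 in SPTLC123 siRNA, and 9.02, 8.93 and 8.94 in scramble. It was thus above scramble in every DEGS1 array and below it in every SPTLC123 array. LAMP3 (1.10), MAVS, the mitochondrial adaptor of the RNA sensors (0.64), and TAPBP (0.55) were also higher, and TRIM5 (-0.74), TRAF3 (-0.70) and PARP12 (-0.47) lower. All 7 calls held with the covariate. With the 3 arrays left out and a single DEGS1 array remaining, none held, and the differences were 0.61 for MYD88, 1.09 for LAMP3, 0.64 for MAVS, 0.46 for TAPBP, -0.70 for TRIM5, -0.50 for TRAF3 and -0.58 for PARP12.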

How the data were processed

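The members and gene lists were chosen with earlier results of these data known. Per the labels' protocols, biotin-labelled cRNA of total RNA was hybridised to 1-colour Affymetrix arrays. The deposited values are probe-set intensity on a linear scale, normalized by the authors; RMA, GCRMA 2.12.1 and limma 2.14.7 are named in the submitters' processing notes without a role, so which method made the values is not given in the sources used here. Values were log2-transformed without a pseudocount. Of 54613 probe sets without controls, 41091 had 1 gene symbol, 1801 had several and 11721 had none in the platform annotation. For each of 19775 genes the brightest such probe set on average was kept. Of the 36 genes measured, 18 had further probe sets, fitted on their own.

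A limma 3.58.1 model (R 4.3.3, lmFit and eBayes) used all 9 arrays and all genes, with a mean for each group, leaving 6 residual degrees of freedom. Tests were two-sided, with Benjamini-Hochberg adjustment over all genes and a threshold of 0.05. Values after ± are the SE of the fit. The fit was tested on simulated data. Members called in any comparison, and IFIT1, IFIT2, IFIT3, ISG15, MX1, OAS1, IFI6, RIGI and IFIH1 in any case, are given by array. IFI35, IFITM3 and IRF3 were added after their values were seen. Other pathway genes are named up to 3 per list and comparison by adjusted p; NMI was added after its values were seen. Alternatives were other probe-set rules, a filter on dim genes, other normalizations, variance models, array weights, a replicate block, the 5′ signal and leaving out arrays.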

Additional observations from a re-analysis of the deposited data

How the results depend on the processing

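The number of genes of the set called in SPTLC123 against scramble was 3, and 5 with the mean of probe sets or with the actin 3′/5′ covariate. In both of these OAS1 was called higher and IFIT2 lower beside the 3 genes of the main fit. Over all genes these settings called 1493 and 2750, beside 1966 in the main fit. Without the 3 arrays with weak 5′ signal OAS1 was called higher and ISG15 was not called, as given with each gene. In DEGS1 against scramble it was 2, and 1 with every probe set, the mean of probe sets, dim genes left out, the covariate, or without the 3 arrays with weak 5′ signal. It was 0 in limma with only the 2 groups compared (4 higher and 4 lower at an unadjusted p under 0.05) or at an adjusted p under 0.01, and 6 with array weights. Leaving out single arrays gave 0 to 5. In the covariate fit and without the 3 arrays the call was OAS1, which rose, in place of IFIT1 and IFIT5. In DEGS1 against SPTLC123 it was 2, and 1 with every probe set, median centring, without the 3 arrays or at an adjusted p under 0.01, 4 with dim genes left out and 6 with array weights. Leaving out single arrays gave 1 to 3. The calls over all 19775 genes moved with the setting too. In DEGS1 against scramble they were 1918 in the main fit, 4263 with array weights and 801 to 3614 with single arrays left out. In DEGS1 against SPTLC123 they were 1713, 3999 and 841 to 2911, and 1813 of 12646 genes with dim genes left out. The filter on dim genes tested 22 of the 36 genes and left IFIT1 out. With the replicate block the counts were 3, 3 and 3. The replicate number was not used as a pairing in the main fit. Same-numbered arrays had correlations from -0.28 to 0.54, and differently numbered arrays of different groups from -0.62 to 0.41. These ranges overlap and do not settle whether arrays were paired. Over 11 genes given by array and 21 alternatives, 615 of 678 values kept their side of the threshold, 38 lost a call, 25 gained one and 0 turned direction with a call on either side. The causes were not tested. Arrays have no read depth; the dim genes limit what a fold change can show.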
